A study of Sus scrofa with 64 samples.

Results

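Macrophages and dendritic cells of the pig jejunum were followed through 10 of their genes, CD163, CD68, CSF1R, CD14, AIF1, SPP1, C1QA, C1QB, FLT3 and XCR1. These are 10 of the 31908 gene IDs in the count tables. Each symbol was paired with 1 Ensembl ID, and all 10 passed the filter on low counts that left 14062 genes for testing. The rule that lists them names cell type genes and uses no measured value, though the choice was made with earlier results of these data known.

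RNA came from mucosa scraped from the mid-jejunum of 64 female piglets of a Large White and Norwegian Landrace cross (TN20), with 1 library per piglet and 16 piglets per group. The 4 groups were fed and fasted piglets of 4 weeks and fed and fasted piglets of 6 weeks, and no piglet had creep feed before 4 weeks. Fed 4-week piglets stayed with the sow, and fasted 4-week piglets spent 48 h in a separate pen on the farm, so fasting and leaving the sow cannot be told apart. The 6-week piglets moved at 4 weeks to a research facility, lived in pairs and ate a standard weaning diet for 2 weeks before 48 h of fasting with water, or continued feeding. Age, weaning, diet and housing therefore changed together between 4 and 6 weeks.

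Macrophages of the gut wall take up bacteria and dying cells, and they are replaced over life by monocytes from the blood. They depend on signalling through CSF1R. Dendritic cells carry antigen to T cells, and their precursors depend on FLT3. A scraping mixes epithelium with lamina propria, so a transcript level in it reflects how many cells carry the transcript and how much each holds, and these cannot be told apart here.

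Libraries held 18774144 to 21159989 gene counts, with scaling factors (TMM, the trimmed mean of M values) of 0.758 to 1.383. Levels are given as CPM, counts relative to the scaled library size, and are not compared between genes because transcript lengths were not used here. Changes are log2 fold changes with their standard error, and a gene was called when its Benjamini-Hochberg adjusted p over 14062 genes was under 0.05 in edgeR's quasi-likelihood test. Positions are RefSeq positions on Sscrofa11.1, matched by symbol. Markers of other cell types moved between the groups as well, and their values stand with the results below.

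Fasting at 4 weeks raised 6 of the 10 genes, CD163, SPP1, CD14, CD68, CSF1R and AIF1, and lowered none. Of all genes tested, 33.9% were called higher and 29.4% lower in that comparison, 63.4% in all. The median log2 fold change was 0.52 over the 10 genes and 0.03 over all 14062. The count of lowered genes was also 0 at an unadjusted p under 0.05, with DESeq2 and with limma-voom. At 6 weeks fasting lowered 2 of the 10, CD68 and CD14, where 18.4% of all genes were called lower, and raised none, where 22.7% were called higher. By unadjusted p under 0.05, 3 were lower and 0 higher, and DESeq2 and limma-voom called 2 and 1 lower and 0 higher. The median at 6 weeks was -0.2 over the 10 genes and 0.01 over all genes.

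The fasting responses at 4 and 6 weeks differed for these 6 genes, and in each the log2 change was lower at 6 weeks, from a difference of -0.56 for AIF1 to -5.13 for CD163. For this difference, 26.6% of all genes were called lower and 27.1% higher, 53.7% in all. The count called higher was 0, also at an unadjusted p under 0.05, with DESeq2 and with limma-voom. The 4 genes without a called difference were C1QA, C1QB, FLT3 and XCR1.

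**Figure D1:**
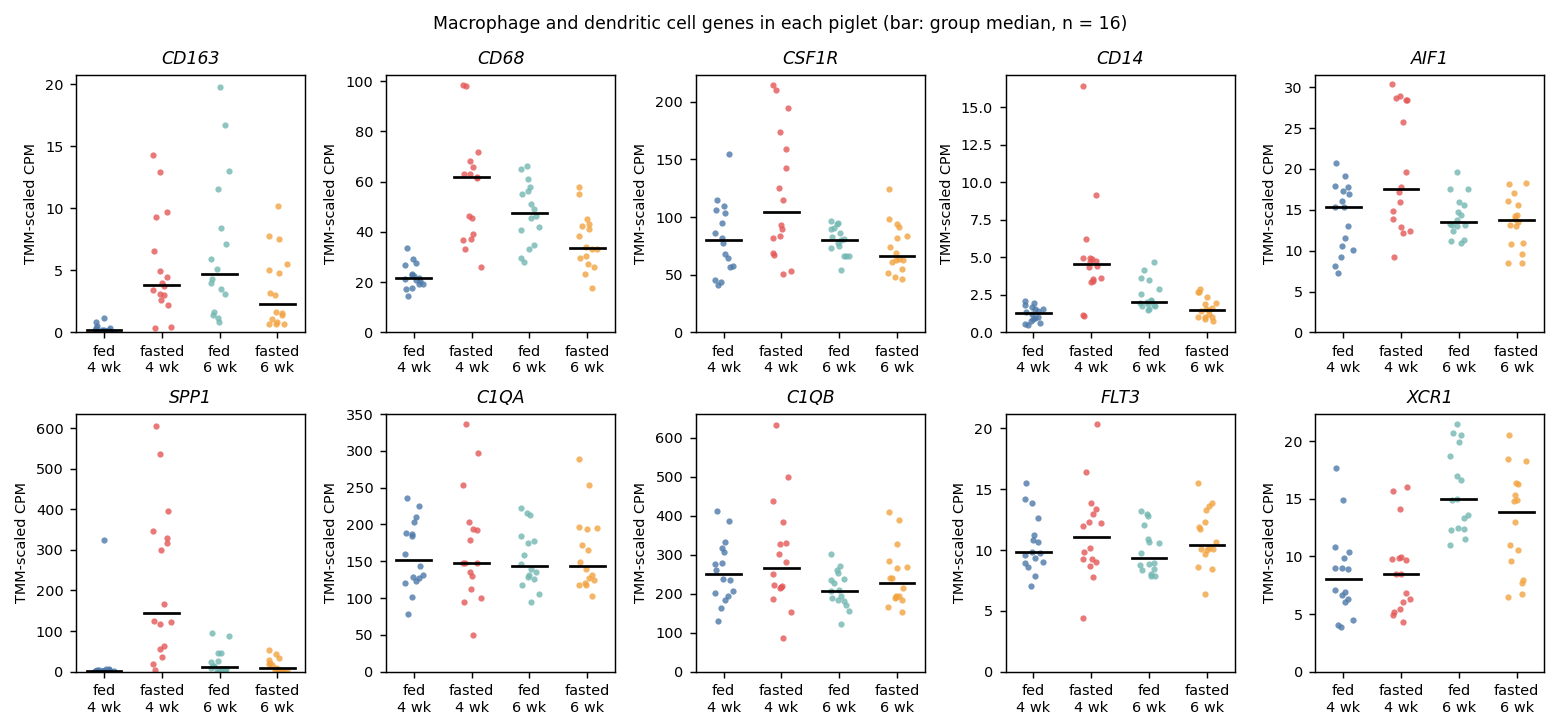
Level of each gene in every piglet as TMM-scaled CPM on linear axes from 0, by group, with the group median as a bar (n = 16). CD163, CD68 and CD14 are low in fed 4-week piglets, SPP1 is low there in all but 1 piglet, and the group medians span 143 to 152 CPM for C1QA and 208 to 266 CPM for C1QB.

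CSF1R, the receptor for the macrophage growth factors CSF1 and IL34, lies on chromosome 2 from 151102138 to 151130311. In fed 4-week piglets its lowest, median and highest levels were 40.8, 79.8 and 155 CPM, and in fasted 4-week piglets 50.4, 104 and 215 CPM. The groups overlapped, with 12 of 16 fasted piglets above the fed median and 5 above every fed piglet. The rise was 0.56 ± 0.17 (adjusted p = 0.0041). At 6 weeks the levels were 53.8, 80.4 and 96.7 CPM in fed and, in the fasted group, 46.7, 66.5 and 124 CPM, which overlapped, with a change of -0.12 ± 0.17 (adjusted p = 0.58). The fasted 4-week group had the highest level, with fed 6-week piglets at -0.59 ± 0.17 against it (adjusted p = 0.0033) and fasted 6-week piglets at -0.72 ± 0.17 (adjusted p = 0.00054). No pair of the other 3 groups was called.

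The ligands of CSF1R went opposite ways at 4 weeks. CSF1, made by many stromal and epithelial cells, rose from 21.5 ± 6.0 to 53.5 ± 18.5 CPM (mean ± SD), a change of 1.31 ± 0.15 (adjusted p = 9.1e-12). IL34, which acts through the same receptor, fell from 89.8 ± 18.1 to 45.5 ± 24.2 CPM, a change of -0.98 ± 0.17 (adjusted p = 9.4e-07). At 6 weeks IL34 rose from 27.3 ± 12.0 to 51.1 ± 9.69 CPM (0.9 ± 0.17, adjusted p = 1.9e-05), and CSF1 had a change of -0.2 ± 0.14 (adjusted p = 0.27). Both differed between ages, CSF1 by -1.51 ± 0.2 and IL34 by 1.88 ± 0.24 (adjusted p 6.9e-09 and 1.2e-09).

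FLT3, the receptor that dendritic cell precursors need, lies on chromosome 11 from 5370475 to 5455439 and was not called in any comparison with TMM scaling and no covariate. Its lowest, median and highest levels were 7.02, 9.8 and 15.5 CPM in fed and 4.39, 11.1 and 20.4 CPM in fasted 4-week piglets. They were 7.87, 9.31 and 13.2 CPM in fed and 6.4, 10.4 and 15.5 CPM in fasted 6-week piglets, so every group overlapped every other. Its changes with fasting were 0.11 ± 0.12 at 4 weeks and 0.14 ± 0.12 at 6 weeks (adjusted p 0.46 and 0.38). Scaling by library size alone gave 0.32 at 4 weeks (adjusted p = 0.038), where that scaling moved the median of all genes to 0.25. With covariates for smooth muscle and B cell markers, fasting at 6 weeks gave 0.31 (adjusted p = 0.04). The smooth muscle markers themselves fell with fasting, so that fit cannot separate the 2. FLT3LG, the ligand of FLT3, rose with fasting at both ages, from 459 ± 67 to 697 ± 127 CPM at 4 weeks and from 498 ± 68.9 to 808 ± 146 CPM at 6 weeks. These changes were 0.6 ± 0.08 and 0.7 ± 0.08 (adjusted p 7.9e-09 and 2.1e-09).

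For the gene lists here and below, 33.9% of all genes were called higher and 29.4% lower with fasting at 4 weeks. At 6 weeks the shares were 22.7% and 18.4%. Of 8 growth factor and receptor genes tested, 4 rose and 1 fell with fasting at 4 weeks (median 0.24), and 3 rose and 1 fell at 6 weeks (median -0.03). The strongest was CSF3R, the receptor for the neutrophil growth factor, which rose from 2.17 ± 1.08 to 26.2 ± 13.7 CPM at 4 weeks (3.59 ± 0.28, adjusted p = 3.8e-17). Of 13 lineage transcription factors, 7 rose and 3 fell at 4 weeks (median 0.34), and 3 rose and 1 fell at 6 weeks (median 0.11). The 3 that fell at 4 weeks, named after their values were seen, were ZBTB46, ID2 and CEBPA, at -0.47, -0.59 and -0.45 (adjusted p 0.0078, 7.9e-09 and 0.0015). MAF rose at both ages (0.78 and 0.87, adjusted p 6.4e-07 and 3.9e-07), while CEBPB rose at 4 weeks and fell at 6 weeks (0.89 and -0.87, adjusted p 4e-06 and 2.9e-05). SPI1, the master factor of myeloid cells, rose by 0.69 ± 0.16 (adjusted p = 0.00019), and IRF8, needed for some dendritic cells, rose from 29.6 ± 5.93 to 82.6 ± 34.1 CPM (1.48 ± 0.17, adjusted p = 1e-11). SPI1 and IRF8 were not called at 6 weeks, SPI1 at -0.22 (adjusted p = 0.27) and IRF8 at -0.25 (adjusted p = 0.2), and both differed between ages (-0.91 ± 0.23 for SPI1 and -1.73 for IRF8, adjusted p 6e-04 and 4.2e-09).

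CD163, the scavenger receptor for complexes of haptoglobin and haemoglobin and a marker of tissue macrophages, lies on chromosome 5 from 63300200 to 63334497. In fed 4-week piglets its lowest, median and highest levels were 0, 0.169 and 1.16 CPM, and 2 piglets had no count, which allows up to 0.183 CPM in each (3 counts, counting error only). The other groups held 0.364, 3.83 and 14.3 CPM when fasted at 4 weeks, 0.802, 4.7 and 19.8 CPM when fed at 6 weeks and 0.684, 2.32 and 10.2 CPM when fasted at 6 weeks. Of the fasted 4-week piglets, 14 of 16 lay above every fed one. The change with fasting was 4.18 ± 0.52 at 4 weeks (adjusted p = 3.8e-10) and -0.95 ± 0.42 at 6 weeks (adjusted p = 0.062). Leaving out 1 of fasted 4-week pig 1, fed 6-week pigs 36, 44, 46 and 48 or fasted 6-week pigs 39, 51 and 55 in turn brought the 6-week value past the threshold, at an adjusted p of 0.026 at the lowest.

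Fed piglets had more CD163 at 6 than at 4 weeks, by 4.52 ± 0.53 (adjusted p = 4e-11), and this comparison shares its fed 4-week piglets with the fasting comparison at 4 weeks. Of all genes, 31.9% were called higher and 32.3% lower between fed ages, and 4 of the 10 genes were called higher, CD163, CD68, CD14 and XCR1. The count called lower was 0, also at an unadjusted p under 0.05 and with DESeq2 and limma-voom. No pair among fasted 4-week, fed 6-week and fasted 6-week piglets was called for CD163. The adjusted p values were 0.52 for fed 6-week against fasted 4-week piglets, 0.062 between the 6-week groups and 0.24 between the fasted groups.

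Haemoglobin taken up through CD163 is broken down by haem-handling proteins, and most of their genes did not follow CD163. HMOX1, the enzyme that breaks haem down, fell from 230 ± 74.3 to 44.2 ± 18.2 CPM with fasting at 4 weeks (-2.38 ± 0.2, adjusted p = 2.7e-16) and rose at 6 weeks from 25.2 ± 13.1 to 42.6 ± 12.7 CPM (0.76 ± 0.19, adjusted p = 0.0011). SLC40A1, the iron exporter ferroportin, which enterocytes also express, fell from 1020 ± 345 to 220 ± 142 CPM at 4 weeks (-2.21 ± 0.26, adjusted p = 8.7e-11). Of 6 haem genes tested, 2 rose and 4 fell at 4 weeks (median -0.42), and 1 rose and 1 fell at 6 weeks (median 0.18). Which cells of the scraping carried these transcripts, HMOX1 included, was not measured, so the values do not describe macrophages alone.

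CD14, which hands bacterial lipopolysaccharide to TLR4, lies on chromosome 2 from 142348036 to 142349686 and was a low transcript. Its lowest, median and highest levels were 0.488, 1.29 and 2.09 CPM in fed and 1.09, 4.56 and 16.4 CPM in fasted 4-week piglets. The ranges overlapped, with 14 of 16 fasted piglets above every fed one. The rise was 2.02 ± 0.24 (adjusted p = 1.5e-10). At 6 weeks the levels were 1.49, 2.04 and 4.67 CPM in fed and, in the fasted group, 0.741, 1.52 and 2.89 CPM, and 7 fasted piglets lay below every fed one. The fall was -0.58 ± 0.24 (adjusted p = 0.045).

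The call at 6 weeks depended on the settings. It was lost with library size alone (adjusted p = 0.071), with no filter (0.054), with limma-voom (0.069) and with covariates for the smooth muscle and B cell markers (-0.2, adjusted p = 0.51). It was also lost when any of 15 piglets was left out, fed 6-week pigs 36, 42, 52, 56, 62 and 64 and fasted 6-week pigs 33, 37, 39, 43, 45, 49, 53, 59 and 61, where the adjusted p reached 0.096. The levels in fed piglets were higher at 6 than at 4 weeks by 0.99 ± 0.24 (adjusted p = 0.00035), and fed 6-week piglets stood at -1.03 ± 0.23 against fasted 4-week ones (adjusted p = 0.00021). Fasted 6-week piglets were not separated from fed 4-week ones in CD14 (0.41 ± 0.25, adjusted p = 0.14).

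The partners of CD14 did not move together. LY96, the protein that binds lipopolysaccharide beside TLR4, rose at 4 weeks from 1.45 ± 0.425 to 3.42 ± 1.49 CPM (1.24 ± 0.18, adjusted p = 1.3e-08). TLR4 had a change of -0.15 ± 0.18 (adjusted p = 0.47), and LBP, which carries lipopolysaccharide to CD14, had -0.82 ± 0.4 (adjusted p = 0.068). Of 13 lipopolysaccharide sensing genes, 4 rose and 4 fell at 4 weeks (median -0.15), near the shares of all genes called, 33.9% higher and 29.4% lower. At 6 weeks edgeR called 0 (1 lower and 0 higher at an unadjusted p under 0.05, none with DESeq2 or limma-voom).

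CD68, a lysosomal protein of phagocytes, lies on chromosome 12 from 52874754 to 52877256. Its lowest, median and highest levels were 14.6, 21.5 and 33.6 CPM in fed and 26.0, 61.7 and 98.4 CPM in fasted 4-week piglets. Only the ends of these ranges met, since 14 of 16 fasted piglets were above every fed one. The rise was 1.35 ± 0.15 (adjusted p = 1.1e-11). At 6 weeks the levels were 27.9, 47.7 and 66.3 CPM in fed and, in the fasted group, 17.8, 33.6 and 57.8 CPM, with 2 fasted piglets above the fed median, and the fall was -0.4 ± 0.15 (adjusted p = 0.025). It missed the threshold with library size alone (-0.41, adjusted p = 0.054) and with the marker covariates (-0.26, adjusted p = 0.16). The order of levels was fed 4-week, fasted 6-week, then fed 6-week and fasted 4-week, the last pair not separated (-0.27 ± 0.15, adjusted p = 0.13).

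Other phagocyte lysosome genes went both ways. Of 10 tested, 3 rose and 4 fell with fasting at 4 weeks, with a median of 0.08, where 33.9% of all genes were called higher and 29.4% lower. The 3 that rose, named after their values were seen, were GPNMB, CTSL and CTSB, at 1.7, 1.18 and 0.28 (adjusted p 4.3e-05, 0.00025 and 0.0027). CTSZ, a lysosomal protease, fell from 536 ± 152 to 184 ± 55.1 CPM (-1.54, adjusted p = 5.3e-16), and LIPA, the lysosomal acid lipase, fell from 434 ± 107 to 206 ± 58.7 CPM (-1.08, adjusted p = 1.2e-12). CTSZ and LIPA are expressed in many other cell types as well.

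AIF1, an actin-binding protein of macrophages, lies on chromosome 7 from 23711752 to 23731191. Its span overlaps LST1 and NCR3, so reads in the overlap may have been left out as ambiguous. Its lowest, median and highest levels were 7.32, 15.4 and 20.7 CPM in fed and 9.2, 17.5 and 30.4 CPM in fasted 4-week piglets. The ranges overlapped widely, with 10 of 16 fasted piglets above the fed median. The rise was 0.48 ± 0.14 (adjusted p = 0.0029). At 6 weeks the change was -0.08 ± 0.14 (adjusted p = 0.7), with medians of 13.6 CPM in fed and, in the fasted group, 13.7 CPM.

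**Figure D2:**
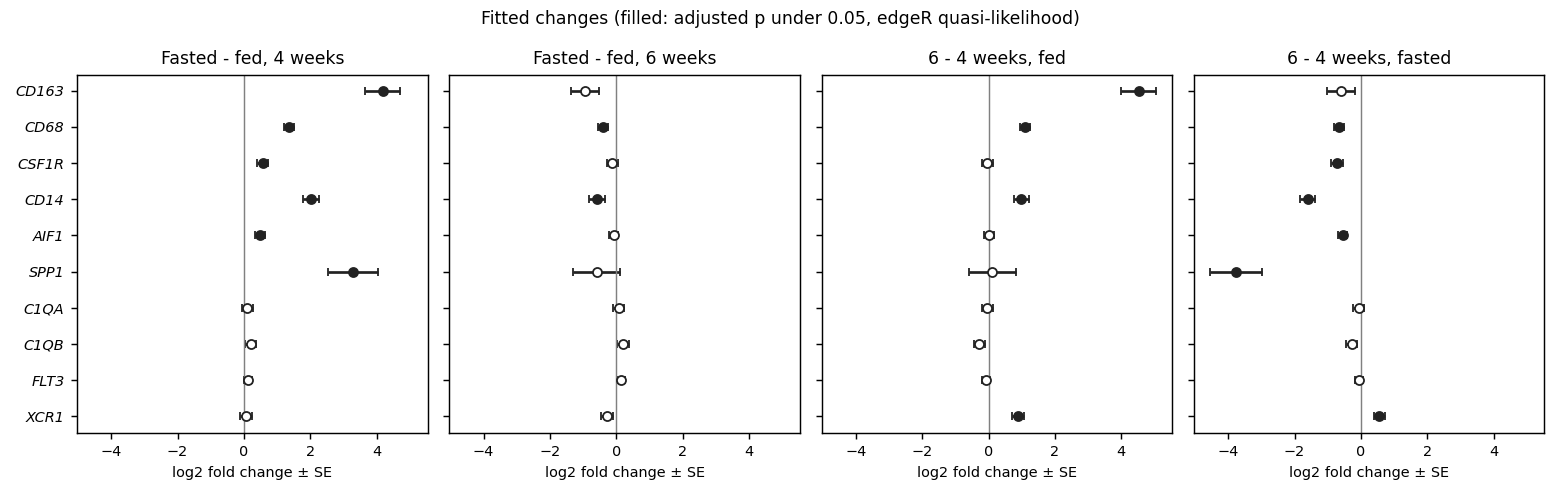
Log2 fold change with its standard error for each gene in 4 comparisons, filled where the adjusted p was under 0.05. Filled points lie to the right for 6 genes with fasting at 4 weeks, and to the left for 2 with fasting at 6 weeks.

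SPP1, osteopontin, a secreted protein that binds CD44 and integrins, lies on chromosome 8 from 131077786 to 131085334. Its lowest, median and highest levels were 0.502, 1.97 and 324 CPM in fed and 5.33, 145 and 605 CPM in fasted 4-week piglets. Fed 4-week pig 13 alone held 324 CPM (6445 counts, 89.6% of the group's sum), and the other 15 fed piglets reached 5.85 CPM at most. The rise was 3.29 ± 0.76 (adjusted p = 0.00015), and it was 6.47 without pig 13 (adjusted p = 1.2e-12). At 6 weeks the levels were 2.53, 10.8 and 94.6 CPM in fed and, in the fasted group, 1.2, 7.89 and 54.5 CPM, a change of -0.59 ± 0.71 (adjusted p = 0.52). Between fed ages the change was 0.11 ± 0.7 (adjusted p = 0.9), and 3.29 without pig 13 (adjusted p = 2.7e-06), so that result rests on this piglet. With limma-voom it was 2.18 (adjusted p = 0.015).

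CD44, a receptor of SPP1 on leukocytes and other cells, rose at 4 weeks from 17.8 ± 5.29 to 40.3 ± 14.9 CPM (1.18 ± 0.16, adjusted p = 1.6e-09). ITGAV, an integrin chain that binds SPP1, fell by 0.68 on the log2 scale (-0.68 ± 0.14, adjusted p = 3.3e-05). ITGB5, its partner chain, fell at 4 weeks (-1.28, adjusted p = 2.3e-12) and rose at 6 weeks (0.73, adjusted p = 2e-05). MMP12, the macrophage elastase, rose from 0.324 ± 0.378 to 23.1 ± 19.9 CPM at 4 weeks (6.09 ± 0.7, adjusted p = 2.3e-11). Of 12 genes in this list, 2 rose and 7 fell at 4 weeks (median -0.48), and 1 rose and 2 fell at 6 weeks (median -0.12).

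C1QA and C1QB are chains of the C1q recognition molecule of complement that macrophages make. They lie close together on chromosome 6, from 80586259 to 80589213 and from 80601680 to 80606076. The gene of the third chain, C1QC, lies between them, from 80592591 to 80597464. The lowest, median and highest levels of C1QB were 131, 250 and 412 CPM in fed and 85.3, 266 and 634 CPM in fasted 4-week piglets, and 123, 208 and 301 CPM in fed and 153, 227 and 409 CPM in fasted 6-week piglets. C1QA had medians of 152 and 148 CPM at 4 weeks and 143 and 144 CPM at 6 weeks in fed and fasted piglets. All groups overlapped, and neither was called with fasting at 4 weeks (C1QA 0.1 ± 0.17, adjusted p = 0.64, and C1QB 0.2 ± 0.17, adjusted p = 0.3) or at 6 weeks (0.07 ± 0.17, adjusted p = 0.75, and 0.2 ± 0.17, adjusted p = 0.34). Across age and feeding, C1QB was lower in fed 6-week than in fasted 4-week piglets (-0.48 ± 0.17, adjusted p = 0.015), and C1QA had -0.14 ± 0.17 (adjusted p = 0.51).

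These results depended on the covariates and the scaling. The smooth muscle markers behind 1 covariate themselves fell with fasting, 9 of 10 at 4 weeks and 7 of 10 at 6 weeks. The covariate fit therefore cannot separate fasting from that fall. With the same marker covariates, fasting at 4 weeks gave 0.65 for C1QA (adjusted p = 0.0023) and 0.75 for C1QB (adjusted p = 0.00029), and at 6 weeks 0.46 (adjusted p = 0.0061) and 0.61 (adjusted p = 0.00022). Library size alone gave 0.45 for C1QB at 4 weeks (adjusted p = 0.036). C1QC, the third chain, had 0.17 ± 0.17 at 4 weeks and 0.15 ± 0.17 at 6 weeks (adjusted p 0.38 and 0.49).

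Of 11 complement genes tested, C1QC among them, 8 were higher at 4 weeks and 0 lower (also 0 lower at an unadjusted p under 0.05, with DESeq2 and with limma-voom), with a median of 1.97. The 3 not called were C1QC, SERPING1 and CFD, the last 2 at 0.52 and 0.22 (adjusted p 0.071 and 0.062) and named after their values were seen. C4A, whose reads may be left out as not unique where close copies exist, rose from 63.5 ± 37.1 to 586 ± 224 CPM (3.21 ± 0.25, adjusted p = 1e-17). C2 rose from 0.347 ± 0.217 to 2.28 ± 1.27 CPM (2.69 ± 0.28, adjusted p = 1.7e-12). At 6 weeks 0 were called in either direction by edgeR, by unadjusted p under 0.05, by DESeq2 or by limma-voom (median 0.08). The fasting response differed between ages for 9, all lower, where 26.6% of all genes were called lower. Fed 6-week piglets had 7 of the 11 higher than fed 4-week piglets, with a median of 1.72, where 31.9% of all genes were called higher. Epithelial cells also make several of these proteins.

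XCR1, the chemokine receptor of dendritic cells that cross-present antigen, lies on chromosome 13 from 29150376 to 29233802. Its span overlaps CCR1, which rose with fasting at 4 weeks (1.61 ± 0.19, adjusted p = 7.9e-11). Reads in the overlap may have been left out as ambiguous. XCR1 levels were 3.9, 8.0 and 17.7 CPM at the lowest, median and highest in fed and 4.28, 8.5 and 16.0 CPM in fasted 4-week piglets, and 11.0, 15.0 and 21.5 CPM in fed and 6.48, 13.9 and 20.5 CPM in fasted 6-week piglets. The 6-week piglets were the higher ones, with all 16 fed above the fed 4-week median. The change between fed ages was 0.88 ± 0.18 (adjusted p = 3.3e-05) and between fasted ages 0.56 ± 0.18 (adjusted p = 0.011), the second of which was lost with the marker covariates (0.35, adjusted p = 0.073). Fasting gave 0.05 ± 0.18 at 4 weeks and -0.27 ± 0.18 at 6 weeks (adjusted p 0.82 and 0.23). With the covariates, which themselves changed with fasting, it gave 0.92 at 4 weeks (adjusted p = 0.00031).

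XCR1 was the only one of the 10 genes called higher at 6 weeks among fasted piglets, where 19.7% of all genes were called higher. SPP1, CD14, CSF1R, CD68 and AIF1 were called lower there, 5 of 10, where 23.2% of all genes were. SPP1 fell by 3.77 (-3.77 ± 0.78, adjusted p = 6.4e-05) and CD14 by 1.61 (-1.61 ± 0.24, adjusted p = 1.4e-07) on the log2 scale.

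XCL1, the ligand of XCR1 made by T and natural killer cells, rose with fasting at 4 weeks from 8.68 ± 1.74 to 13.8 ± 3.58 CPM (0.66 ± 0.12, adjusted p = 1.8e-06) and at 6 weeks from 8.82 ± 2.26 to 11.7 ± 2.49 CPM (0.41 ± 0.12, adjusted p = 0.0035). The other dendritic cell genes on the list were those of activated and migrating cells as well as lineage markers. Of 12 tested, 6 rose and 1 fell at 4 weeks (median 0.39). CD40, which receives help from T cells, rose from 4.61 ± 1.23 to 26.5 ± 14.6 CPM (2.52 ± 0.22, adjusted p = 9.2e-16). CCR7, the receptor that guides migration to lymph nodes and that T and B cells also carry, rose by 5.83 (adjusted p = 3e-19). LY75, the gene that fell (-0.45, adjusted p = 0.003), was chosen after its value was seen. At 6 weeks 0 were called (1 higher and 0 lower at an unadjusted p under 0.05, 0 with DESeq2 and limma-voom).

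Other monocyte and macrophage genes rose at 4 weeks in 11 of 19 tested and fell in 2, with a median of 0.59. CD86, a costimulatory ligand, rose from 31.8 ± 12.7 to 111 ± 30 CPM (1.8 ± 0.19, adjusted p = 6.5e-13), and CLEC7A, the receptor for fungal glucans, rose by 3.14 ± 0.35 (adjusted p = 1.2e-11). The 2 that fell, named after their values were seen, were STAB1 (-0.51, adjusted p = 0.011) and FOLR2 (-0.66, adjusted p = 0.00082), a scavenger receptor and a folate receptor. Among the 11 that rose were TIMD4, MRC1 and MERTK, receptors for the uptake of dying cells or glycoproteins, at 2.14, 1.22 and 0.72 (adjusted p 3e-11, 0.00028 and 0.00027), also named after their values were seen. Of the list, 6 were not called at 4 weeks. Among them, again named after their values were seen, were VSIG4, LYVE1 and MSR1, at -0.11, -0.06 and 0.12 (adjusted p 0.72, 0.81 and 0.63). At 6 weeks 1 rose, VSIG4 (0.72 ± 0.27, adjusted p = 0.026), and 0 fell (2 at an unadjusted p under 0.05, 1 with DESeq2 and 1 with limma-voom). Of 11 chemoattractants and their receptors, 9 rose at 4 weeks and 0 fell by any of those 4 counts (median 1.61), among them CCL4, which rose from 4.15 ± 1.71 to 19.8 ± 7.25 CPM (2.25 ± 0.2, adjusted p = 2.2e-15). At 6 weeks 2 rose and 1 fell.

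**Figure D3:**
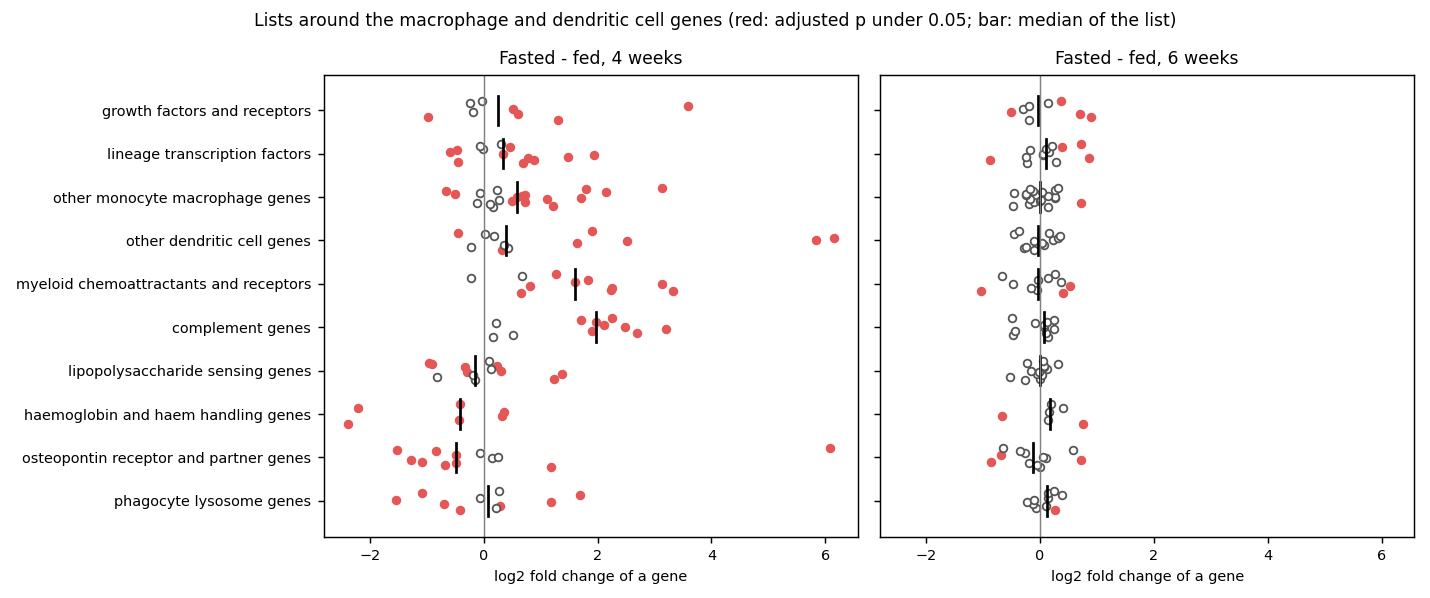
Log2 fold change of every tested gene in 10 lists of genes that act with or beside the macrophage and dendritic cell genes, with fasting at 4 and at 6 weeks, in red where the adjusted p was under 0.05 and with the list median as a bar. The complement list has its median at 1.97 at 4 weeks and 0.08 at 6 weeks.

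Setting each gene against C1QB within the same library gave a ratio that no scaling changes. This ratio was added after the data were seen and carries no test. CD68 reads per 1000 C1QB reads ranged from 56.1 to 123 in fed and from 144 to 460 in fasted 4-week piglets, which did not overlap. The ratios of all the other genes, CD163 and CD14 among them, overlapped between these 2 groups. The share of all tested genes without overlap was not computed, so the CD68 result has no baseline. CD163 reads per 1000 had medians of 0.666 and 14.6 at 4 weeks, and 19.8 and 11.3 at 6 weeks, in fed and fasted piglets. CSF1R reads per 1000 had medians of 314, 410, 378 and 306 in fed 4-week, fasted 4-week, fed 6-week and fasted 6-week piglets, and C1QA reads 612, 581, 716 and 662. The fed 4-week piglets were the low ones for CD163 and CD68, and the ranges of C1QA overlapped within each age.

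**Figure D4:**
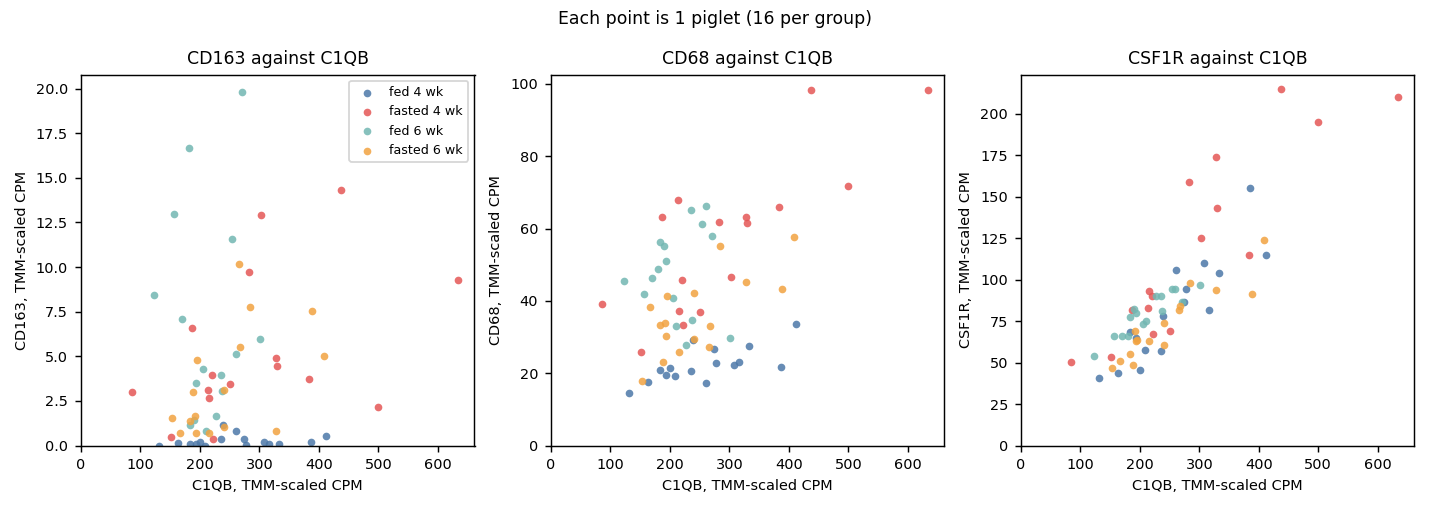
CD163, CD68 and CSF1R against C1QB in TMM-scaled CPM, with 1 point per piglet. CSF1R follows C1QB across all groups, while the fed 4-week piglets lie low in CD163 and CD68 at the same C1QB level.

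Pooled over groups, most of the 10 genes varied together among piglets. After group means were taken off log2 CPM, 39 of 45 pairs were positively correlated over 64 piglets at an adjusted p under 0.05, by permutation within groups with 100000 resamples, adjusted over 45 pairs. The share of pairs called among all tested genes was not computed, so this count has no baseline. C1QA and C1QB were the closest, with r = 0.97 and rho = 0.95 (permutation adjusted p = 3.7e-05, from a raw p of 1e-05, the smallest these resamples can give), 0.96 without the 2 farthest piglets and 0.95 to 0.98 within groups. CSF1R and C1QB had r = 0.89 and rho = 0.89, and 0.89 to 0.92 within groups. CD163 and C1QB had r = 0.35 and rho = 0.35 (permutation adjusted p = 0.011), with 0.39, 0.43, -0.02 and 0.51 in fed 4-week, fasted 4-week, fed 6-week and fasted 6-week piglets. CD68 and CSF1R had r = 0.63, with 0.55, 0.83, 0.09 and 0.71 in that order. Over the 45 pairs the median r at 4 weeks was 0.57 both with and without feed. At 6 weeks it was 0.19 with feed, where 11 pairs were below 0, and 0.53 without. The difference between groups was not tested. SPP1 and C1QA had r = 0.11 (permutation adjusted p = 0.42). The other pairs not called were SPP1 with C1QB, FLT3 with CD163, CD68 and CD14, and XCR1 with CD14. A scaling shared by all genes of a library can raise such correlations, and with library size alone 44 pairs were called.

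**Figure D5:**
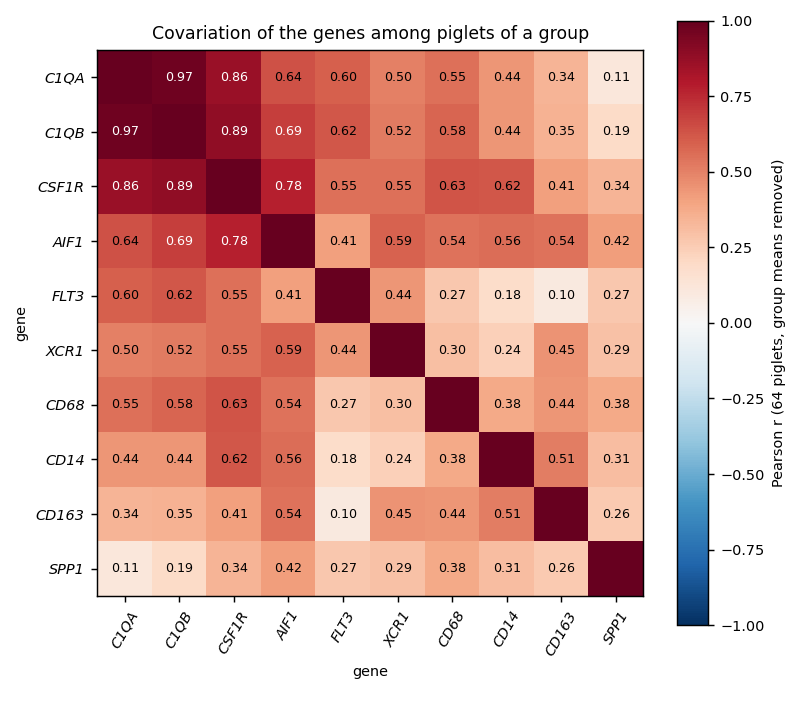
Pearson r between the genes over 64 piglets with group means removed, written in each cell and coloured from -1 to 1. C1QA, C1QB and CSF1R form the closest group at 0.86 to 0.97, and the lowest values are 0.1 for CD163 with FLT3 and 0.11 for SPP1 with C1QA.

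The genes most like each of these by Pearson r over the same 64 piglets are given as a description. For CSF1R they were CMKLR1, HLA-DRA and GP91-PHOX, with r of 0.91, 0.91 and 0.9. For AIF1 they were ITGB2, MARCHF1 and SPI1, with r of 0.89, 0.87 and 0.87. XCR1 was followed by RAB7B, ZNF366 and KCNA3 (0.77, 0.77 and 0.74), and FLT3 by CIITA, CD74 and HLA-DRA (0.68, 0.67 and 0.64). SPP1 was most like MMP12, PTPRO and AQP9 (0.68, 0.67 and 0.63), CD163 most like IGFBP5, TNFAIP6 and CCR3 (0.74, 0.7 and 0.7), CD68 most like GM2A, SLC15A3 and AMBN (0.74, 0.7 and 0.68), and CD14 most like PRCP, TIMP1 and ALDH1L2 (0.71, 0.69 and 0.68). C1QA and C1QB had each other and C1QC at 0.97, then SLA-DMB at 0.89 and HLA-DRA at 0.91.

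Single piglets stood high or low across many of the genes. In fed 4-week piglets, pig 15 was among the 3 highest of its group for 8 of the 10 genes and pig 4 among the 3 lowest for 9. In fasted 4-week piglets, pig 3 was among the 3 highest for 8 and pig 16 among the 3 lowest for 7. In fasted 6-week piglets, pig 41 was high for 8 and pig 33 low for 8. The fed 6-week piglets reached less, with pig 42 high for 6 and pigs 38 and 60 low for 5 each at the most. Without fasted 4-week pigs 1, 28 and 32, which stood apart in earlier results of these data, 6 genes were called higher with fasting at 4 weeks.

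Markers of other cell types moved with fasting at 4 weeks, and their part in the results above was not tested beyond the covariate fit. That fit cannot separate fasting from markers that change with it. Smooth muscle markers fell in 9 of 10, and their summed level ranged from 231 to 882 CPM when fed and from 48.2 to 346 CPM when fasted. Fibroblast markers fell in 6 of 9, with median sums of 1150 and 397 CPM, and endothelial markers in 5 of 8, with 152 and 88.2 CPM. T cell markers rose in 4 of 7, with median sums of 188 and 266 CPM, and B cell markers in 3 of 7. Of the plasma cell markers, 5 of 7 rose and 1 fell, and of the absorptive enterocyte markers 4 of 8 rose and 2 fell. Mast cell markers were called in 0 of 3, also at an unadjusted p under 0.05, with DESeq2 and with limma-voom. With the smooth muscle and B cell covariates, 9 of the 10 genes were called higher at 4 weeks. The share of all genes called higher in that fit is not given here, and the 33.9% above comes from the fit without covariates. Of 5 neutrophil markers with an ID, the 2 tested rose, CSF3R by 3.59 and ELANE by 0.4 (adjusted p 3.8e-17 and 0.015). The others did not pass the filter on low counts. The sum over the 5 ranged from 1.1 to 5.03 CPM when fed and from 4.65 to 52.4 CPM when fasted. CSF3R alone had a median of 30.8 CPM in the fasted piglets, where the median sum was 32.2 CPM. MPO had no count in 14 fed and 13 fasted piglets. Interferon-stimulated genes rose in 13 of 13, from a median sum of 2230 to 14600 CPM, and fell in 9 of 13 at 6 weeks, from 9300 to 3330 CPM. At 6 weeks fasting lowered 7 of 10 smooth muscle, 6 of 9 fibroblast and 2 of 8 endothelial markers. It also lowered 2 of 7 plasma cell and 3 of 8 enterocyte markers. It raised 3 of 7 T cell, 1 of 8 enterocyte, 1 of 3 mast cell and 1 of 2 tested neutrophil markers. Between fed ages, 31.9% of all genes were called higher and 32.3% lower at 6 weeks. Lower were 8 of 10 smooth muscle, 4 of 8 endothelial, 1 of 7 plasma cell and 1 of 8 enterocyte markers. Higher were 7 of 7 T cell markers, 6 of 7 plasma cell markers and 13 of 13 interferon-stimulated genes. Also higher were 5 of 8 enterocyte, 1 of 7 B cell, 1 of 9 fibroblast and 1 of 2 tested neutrophil markers. No marker of these lists was at 0 in all piglets of a group.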

How the data were processed

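Total RNA of 64 jejunal scrapings was sequenced on a BGISEQ-500, per the labels' protocols. The authors deposited read counts for each gene ID without normalization. The submitters' processing notes name STAR, HTSeq and the build Sscrofa11.1. Versions, annotation release and strand setting are not given in the sources used here. The extraction text in the labels speaks of muscle tissue, and this could not be checked. The 5 HTSeq summary classes entered neither library sizes nor tests, with 4.84 to 8.89% of reads outside genes, 5.5 to 7.64% ambiguous and 2.73 to 4.07% not unique. Symbols were paired with 15029 of 31908 IDs. Replicates are single piglets, and no litter, pen or batch is labelled. All tests treat the 64 piglets as independent, although the 6-week piglets lived in pairs and litter mates are not known.

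Genes were kept by filterByExpr (minimum count 10), scaled by TMM and fitted in edgeR 4.0.16 (R 4.3.3) as 4 group means, with robust quasi-likelihood F tests (the common coefficient of biological variation was 0.289). Standard errors are the absolute log2 fold change over the square root of F, and ± with CPM gives the SD (n = 16). The Benjamini-Hochberg adjustment ran over all 14062 genes of a comparison. The script was tested on simulated data. Correlations used log2 CPM with a prior count of 2. Alternatives were DESeq2 size factors, library size alone, no filter, DESeq2 1.42.0, limma-voom (limma 3.58.1), marker covariates, 2 groups only, fits without 3 piglets and without each piglet. Contrasts across both age and feeding, which order the group levels, and the ratios to C1QB were added after the data were seen.

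The 10 genes and all gene lists were chosen with earlier results of these data known. Named genes were the 10 genes, their ligands and partners whatever their result, up to 2 further called genes per list and fasting comparison with the smallest p, if mean log2 CPM was 0 or more, and the 3 genes most like each by Pearson r. C1R, C1S and HP had no paired ID and were not analysed here.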

Additional observations from a re-analysis of the deposited data

Results flagged for a closer look

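The response to fasting differed between 4 and 6 weeks for 6 of the 10 genes, by a test of the difference itself in the same edgeR model. The difference, the log2 change at 6 weeks minus that at 4 weeks, was -5.13 for CD163, -3.88 for SPP1, -2.6 for CD14, -1.76 for CD68, -0.68 for CSF1R and -0.56 for AIF1, with adjusted p values of 2.9e-09, 0.0011, 3.2e-09, 3e-10, 0.015 and 0.018. Without fed 4-week pig 13 the SPP1 difference was -7.06 (adjusted p = 1.1e-10).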

How the results depend on the processing

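No paired analysis was possible because the groups share no replicate numbers, as each piglet has its own. The 50 fold changes of the 10 genes had 490 values under alternatives, of which 439 kept direction and side of the threshold, 12 gained a call, 8 lost one and 31 changed sign, none of these a called change. Of 24 calls, 3 were lost somewhere, those of CD68 and CD14 at 6 weeks and XCR1 among fasted ages.

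With library size alone, the genes called lower with fasting at 4 weeks came to 2518, those higher for the difference to 2213 and those lower between fed ages to 2719. Of the 10 genes, those lower with fasting at 6 weeks came to 0 with library size alone, 1 with no filter, 1 with limma-voom, 0 with the covariates and 1 to 3 when each piglet was left out. With the covariates 3 were higher with fasting at 6 weeks (C1QA, C1QB and FLT3, the last at 0.31) and 0 were higher at 6 weeks among fasted piglets. The shares of all genes called in the covariate fit are not given here.

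Sign changes with the covariates at 6 weeks were CSF1R 0.29, AIF1 0.27, SPP1 0.25 and XCR1 0.06. For the difference they were C1QA 0.05 with limma-voom, FLT3 -0.21 with library size alone, and C1QB -0.01 with DESeq2 size factors, no filter and DESeq2, -0.27 with library size alone, -0.13 with the covariates and -0.08 without 3 fasted 4-week piglets. Between fed ages they were CSF1R 0.17 with library size alone, 0.04 with limma-voom and 0.22 with the covariates, C1QA 0.17 and 0.15 with library size alone and the covariates, and FLT3 0.13 with library size alone. Among fasted ages C1QA was 0.02 with limma-voom. Leaving out each piglet in turn gave ranges that crossed or touched 0. With fasting at 4 weeks these were 0 to 0.16 for C1QA and -0.03 to 0.16 for XCR1, and at 6 weeks 0 to 0.12 for C1QA. For the difference they were -0.1 to 0.07 for C1QA, -0.06 to 0.12 for C1QB and -0.03 to 0.11 for FLT3. Between fed ages they were -0.09 to 0.05 for CSF1R, -0.04 to 0.05 for AIF1, -0.09 to 0 for C1QA and -0.2 to 3.29 for SPP1, the last without fed 4-week pig 13. Among fasted ages they were -0.14 to 0.03 for C1QA and -0.1 to 0.03 for FLT3. The cause was not tested.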
